A study of Mus musculus with 20 samples.

Results

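The comparison described here is thoracic radiation alone against no treatment in mouse lung, over 10 of the 20 arrays of the series. Its members were chosen by the treatment in the labels, 5 arrays of mice given 13.5 Gy to the chest and 5 arrays of mice whose treatment is given as none. All mice were C57BL/6, an inbred laboratory strain, and the irradiated mice were sacrificed 48 hours after the dose. The labels give no age, sex, sham procedure or control diet, and no transgene or other agent for either group. The other 10 arrays came from mice fed 10% flaxseed for 21 days, 5 of them without radiation and 5 irradiated at the same dose. They repeat the radiation comparison in separate mice. They also entered the shared normalization and the shared estimate of spread, which set the standard errors, intervals and adjusted p-values given for single spots. The MA10 array carries 9600 spots and gave 1 intensity per spot and mouse. The material was lung RNA and the label was 33P (radioactive phosphorus).

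A high single dose to the chest breaks DNA in the dividing and resting cells of the lung, and p53, the transcription factor that answers such breaks, is known to turn on genes for cell cycle arrest, repair and cell death. Lymphocytes in blood and tissue are among the most radiosensitive cells, and their numbers are known to drop soon after a dose. In C57BL/6 mice thoracic radiation is known for a late pneumonitis and fibrosis, so that tissue taken within days shows the early phase. In RNA from whole lung, fewer cells of a type and less RNA per cell cannot be told apart. The spots carry numbers and no gene names, and 0 of the 9600 spot names matched the mouse gene table, so neither p53 targets nor cell type markers could be read, and the lung label was not checked against marker genes. The number in a spot name is not a gene identifier.

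No difference between the groups was detected in any of 4 array measures. Median signal over local background was 5.56 ± 0.655 (SD, n = 5) in untreated lungs and 5.4 ± 0.723 in irradiated lungs, and the exact two-sided permutation test over the 10 arrays gave p = 0.706 (adjusted 0.952 over 4 array measures, smallest p possible 0.00794). The share of spots under 2 times background was 16.1% ± 2.06 and 16.5% ± 2.11. The spread of log2 signal between the 10th and 90th percentile averaged 4.78 in both groups, but ranged from 4.34 to 5.07 over irradiated arrays and only from 4.72 to 4.85 over untreated arrays. Radiation replicate 4 had the narrowest spread of the 10. Across spots, log2 values correlated at 0.966 to 0.974 in the 10 pairs of untreated arrays, 0.954 to 0.975 in the 10 pairs of irradiated arrays and 0.954 to 0.972 in the 25 pairs between the groups, and spots are not independent replicates.

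After radiation alone, the large differences went down and the small ones went both ways. Over 2-fold, 35 spots were lower in irradiated than in untreated lungs and 3 were higher, 0.365% and 0.0312% of all 9600 spots, or 0.396% together. At a log2 difference over 0.75 the counts were 48 lower and 15 higher, and over 0.25 they were 737 lower and 753 higher. The median difference over all spots was 0.0076 (log2). Of the 38 spots past 2-fold, 34 lay in the brightest 20% of the array, 31 of them lower and 3 higher. Values are log2 intensities after background correction with an offset of 50, which shrinks differences at dim spots. Under plain background subtraction 104 spots were over 2-fold lower and 51 higher, and with the authors' table values 402 and 280, but within the brightest 20% both settings gave 33 lower and 3 higher.

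**Figure D1:**
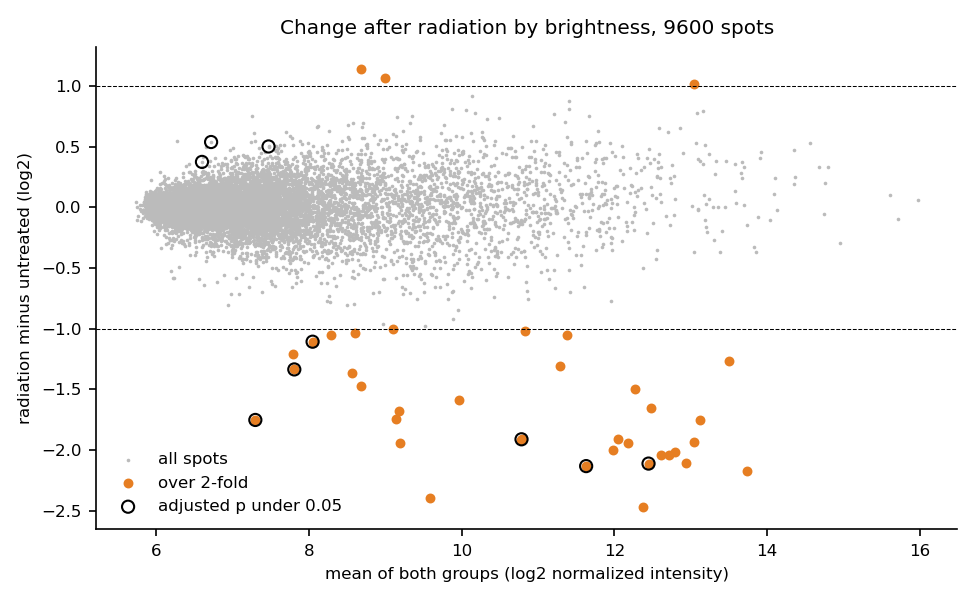
Difference between irradiated and untreated lungs (log2, vertical axis) against the mean of both groups (log2 normalized intensity, horizontal axis) for 9600 spots, with dashed lines at 2-fold. The 35 orange points under the lower line reach -2.47 and stand apart from the grey cloud, while the 3 over the upper line end at 1.14, and circles mark the 9 spots with a limma adjusted p under 0.05.

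In limma, a linear model fitted to every spot, 9 spots passed at a Benjamini-Hochberg adjusted p of 0.05, 0.0938% of those tested. Of these, 6 fell (0.0625%) and 3 rose (0.0312%). At an unadjusted p under 0.05 there were 734 spots (7.65%), 359 higher (3.74%) and 375 lower (3.91%). From the p-values over all spots, the share of spots that differ was estimated at 4.17%, 5.5% and 5.6% by 3 methods in limma. The calls depended on which arrays entered the fit. All were lost, with 0 of 9600 passing in limma and 656 to 756 at an unadjusted p under 0.05, without untreated replicate 3 or 5 or without radiation replicate 1, 2, 3 or 4, and 5 passed without untreated replicate 2.

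The largest fall among the spots that passed was at gene6591. Its log2 intensities were 12.88, 12.26, 12.93, 12.5 and 12.91 in the untreated lungs and 10.42, 11.05, 11.06, 10.23 and 10.06 in the irradiated lungs. Every irradiated lung was thus lower than every untreated lung, with a gap of more than 1 between the groups on the log2 scale. Before any correction the scanner signal of this spot ran from 4959 to 10595 without radiation and from 744 to 2073 with it. The fall was 4.38-fold, or -2.13 ± 0.39 as log2 (SE), with a 95% interval of -2.95 to -1.31 and a limma adjusted p of 0.0365. The spot stayed far over its local background in irradiated lungs, at a median of 52.1 times, against 103.7 times in untreated lungs.

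Spot gene9516 fell by about as much. It stood at 13.29, 13.44, 13.64, 13.19 and 13.94 in untreated lungs and at 10.95, 11.82, 11.53, 11.37 and 11.28 in irradiated lungs. The groups again did not overlap, and the irradiated lungs lay within a range of less than 1 on the log2 scale. The change was -2.11 ± 0.36 (log2, SE), or 4.32-fold, with an interval of -2.86 to -1.36 and a limma adjusted p of 0.0334. It was among the brightest spots, at the 99.3rd percentile of mean intensity, with gene6591 at the 98.1st. When single arrays were left out, the change at gene9516 stayed between -2.23 and -1.99. Its adjusted p passed in 2 of the 10 fits (limma, 0.0426 to 0.118 over the 10). That at gene6591 stayed between -2.26 and -2.01 and passed in none of the 10 (limma, adjusted p 0.052 to 0.13). The call at gene6591 was also lost with the authors' table (limma adjusted p = 0.056). In a fit of only the 2 groups, without the flaxseed arrays, the limma adjusted p was 0.0046 at gene6591 and 0.0015 at gene9516.

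The other 4 spots that fell had log2 changes of -1.91, -1.75, -1.33 and -1.11, with standard errors of 0.19 to 0.35. They were dimmer, between the 51.9th and the 95.9th percentile of mean intensity. In the dimmest of them the irradiated lungs reached down to 2.07 times background, from 10.4 times in untreated lungs (group medians). In each of the 4 every irradiated lung was lower than every untreated lung. The groups did not overlap, in 1 direction or the other, at any of the 9 spots that passed. The spot next in rank had a larger fitted change than any that passed, -2.4 ± 0.46 (log2, SE), and missed the threshold (limma adjusted p = 0.0556). The 4 spots after it, with changes of -1.47 to -2.17, had adjusted p of 0.0595 to 0.0615 in limma.

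The rises that passed were under 2-fold with the offset of 50, which shrinks changes at dim spots. Spot gene3410 stood at 6.43, 6.48, 6.36, 6.43 and 6.54 in untreated lungs and at 7.32, 6.84, 7.05, 6.98 and 6.75 in irradiated lungs. The untreated lungs were close together, with an SD of 0.068, and the irradiated lungs were all higher and spread more widely, with an SD of 0.22. The rise came to 0.54 ± 0.1 (log2, SE) at a limma adjusted p of 0.0485. This was a dim spot, at 3.31 times background in untreated and 4.91 times in irradiated lungs (medians), and its change depended on the background correction. It was 1.19 with background subtraction (limma adjusted p = 0.0307), 0.92 without background correction (limma adjusted p = 0.0178), 0.87 with an offset of 10 (limma adjusted p = 0.0162) and 1.18 with the authors' table, where it did not pass (limma adjusted p = 0.056). The call was also lost without the flaxseed arrays (limma adjusted p = 0.0999) or the dimmest spots (limma adjusted p = 0.0667). Removing column, row and block means from each array lost it as well (limma adjusted p = 0.06). With the authors' table, these were 4 of 12 other settings. Spot gene3410 passed in 1 of the 10 fits with a single array left out (limma, adjusted p 0.0466 to 0.135 over the 10).

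Spot gene2520 stood at 7.24, 7.31, 7.06, 7.36 and 7.12 in untreated lungs and at 7.79, 7.81, 7.58, 7.75 and 7.68 in irradiated lungs. All irradiated lungs were higher than all untreated lungs, and both groups were tight, with SDs of 0.12 untreated and 0.095 irradiated. The rise came to 0.5 ± 0.084 (log2, SE) at a limma adjusted p of 0.0334. The call was lost in 6 of the 10 fits with 1 array left out (limma, adjusted p 0.0543 to 0.118). It was also lost in 5 of 12 other settings (limma, adjusted p 0.056 to 0.154), which were trend and robust options, background subtraction, no background correction, leaving out the dimmest 33.3% of spots and the authors' table. The third spot that rose changed by 0.37 and lay at the 31.5th percentile of mean intensity. With the offset of 50 none of the 3 reached 2-fold, and the 3 spots over 2-fold higher, at 1.02 to 1.14, did not pass.

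**Figure D2:**
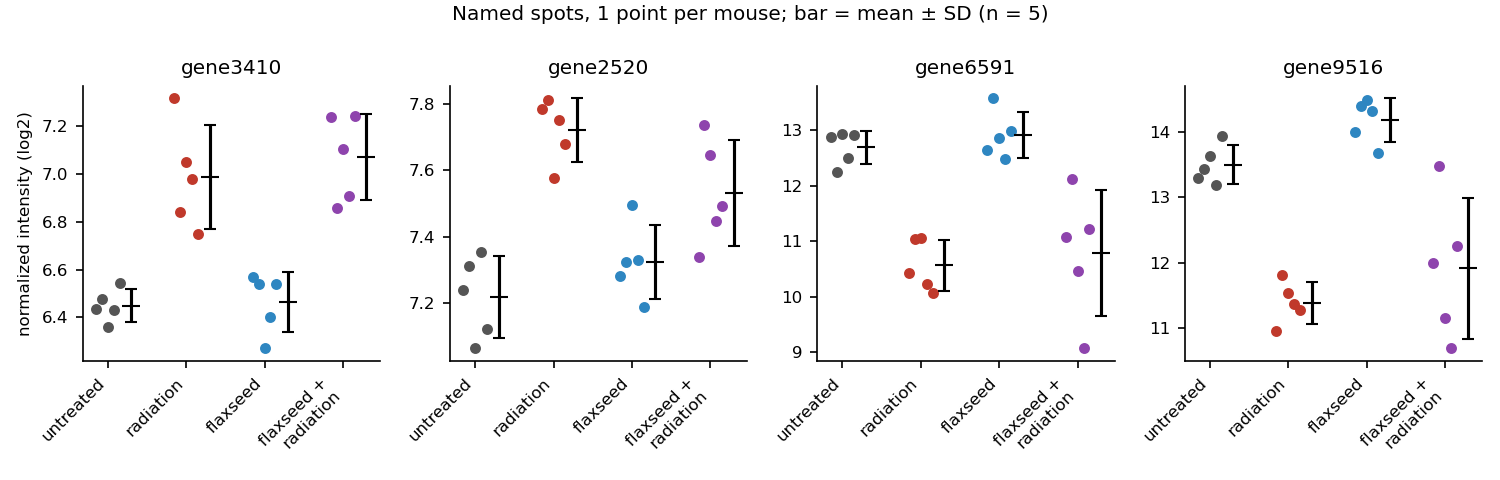
Log2 normalized intensity (vertical axis, each panel with its own scale) of the 2 named spots that rose and the 2 that fell, by group, with 1 point per mouse and the mean ± SD beside them (n = 5). At gene6591 and gene9516 irradiated lungs lie about 2 log2 units under untreated lungs, and with flaxseed and radiation the mice spread more widely, with SDs of 1.13 and 1.08.

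The 35 spots that were over 2-fold lower were chosen by their difference, so their values without flaxseed are a description and no test. Their untreated means ran from 8.17 to 14.8 and their irradiated means from 6.42 to 12.9 (log2), with a median change of -1.75 and a range of -2.47 to -1. The spot just short of 2-fold was at -0.98. In 26 of the 35 the groups did not overlap, as in 1.46% of all spots. A limma adjusted p under 0.1 was found at 21 of them and at 33 of all 9600, and an unadjusted p under 0.05 at all 35 and at 7.65% of all spots, and nothing is read from these counts because the same difference chose the spots. In the irradiated lungs all 35 remained over 2 times background by their group median.

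Relative to the untreated mean of each spot, the median over the 35 was -1.69, -1.27, -1.45, -2.46 and -1.73 in radiation replicates 1 to 5, against -0.21, -0.13, 0.24, -0.28 and 0.23 in the untreated lungs. Radiation replicate 4 was the lowest, and it is also the array with the narrowest spread of signal and, by limma, the lowest array weight among the 10 (0.63). The authors' table exchanges the values of radiation replicates 4 and 5, so which of these 2 mice the array belongs to is not settled. The part of that array in the result can be read from the fit without it, in which 35 spots were over 2-fold lower, 32 of them the same spots. In each of the 10 fits that left out 1 array, 32 to 37 spots were over 2-fold lower and 31 to 34 of the original 35 were among them, while 0 to 4 were over 2-fold higher. Below the untreated mean lay 34 of the 35 spots in radiation replicate 2 and 35 in each of the other 4 irradiated mice, against 8 to 28 in the untreated mice.

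**Figure D3:**
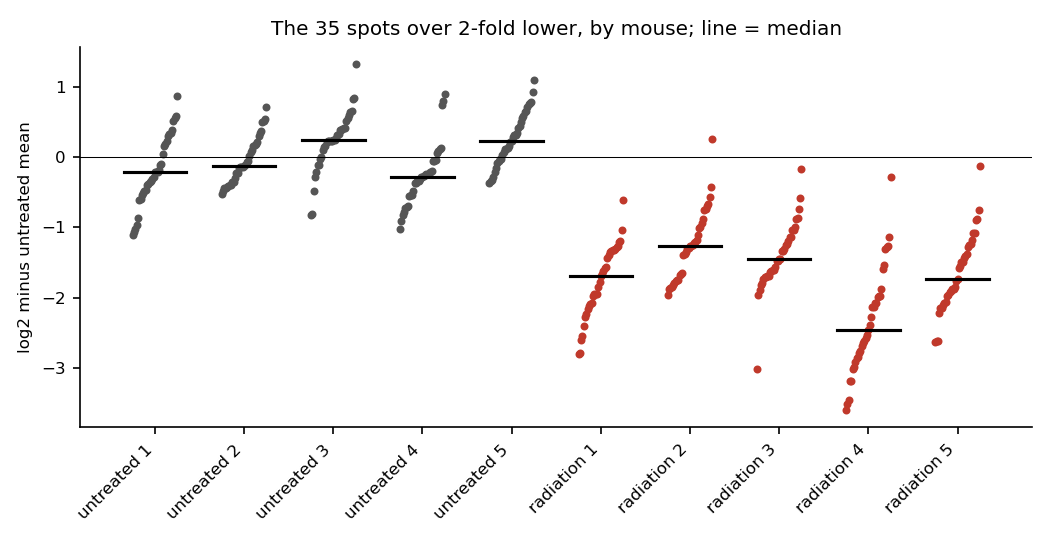
The 35 spots over 2-fold lower after radiation, as log2 intensity minus the mean of the untreated lungs (vertical axis) in each of the 10 mice (horizontal axis), with points sorted within a mouse and a line at the median. The untreated medians lie between -0.28 and 0.24 and the irradiated medians between -2.46 and -1.27.

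The 35 spots also varied together from mouse to mouse within the groups. With each group's mean removed, the correlation between 2 of the 35 spots over the 10 mice had a median of 0.41 over 595 pairs, with 38.8% of pairs over 0.5 and 16% below 0. For the other 1889 spots of the brightest 20% the median was -0.0044, with 9.98% of pairs over 0.5 and 50.4% below 0. For 95 bright spots that were lower at an unadjusted p under 0.05 but by less than 2-fold, the median was 0.024. For the 73 spots at which all irradiated lungs were higher than all untreated lungs, it was -0.012. All these pairs share the same 10 arrays and their normalization, and the values are a description. Between gene6591 and gene9516 the correlation was 0.6.

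**Figure D4:**
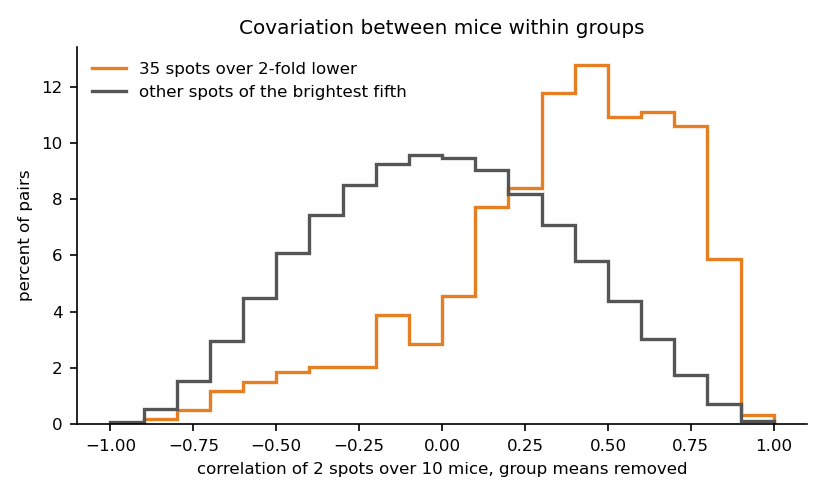
Percent of pairs of spots (vertical axis) by the correlation of the pair over 10 mice after the group means were removed (horizontal axis). Pairs among the 35 spots over 2-fold lower centre on 0.41, and pairs among the other 1889 spots of the brightest 20% centre on -0.0044.

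By the spot numbers, read as 16 blocks of 24 rows and 25 columns, the 35 spots were spread over 12 blocks and 17 rows but not evenly over columns. Columns 14 to 16, picked after the values were seen, held 24 of the 35 (68.6%) and 12% of all spots, and column 16 alone held 12. Both gene6591 and gene9516 lie in column 16. Whether this is how the spots were printed is assumed, not known. The remaining spots of columns 14, 15 and 16 had median changes of -0.0051, -0.00056 and -0.0029. The 113 direct neighbours of the 35 spots had a median change of 0.00068, and 48.7% of them were lower, against 47.6% of all spots. With the column, row and block means removed from each array, 34 of the 35 were still over 2-fold lower, with a median change of -1.7. The mean change per column ran only from -0.094 (column 16) to 0.047 (column 9). Removing column means could thus move these spots little, and an effect of position was not tested. The 11 spots in other columns had a median change of -1.75, against -1.83 for the 24. With group means removed, the median correlation between 2 spots was 0.29 among the 11 and 0.41 among the 24. Below 0 were 30.9% and 9.78% of these pairs, and over 0.5 were 40% and 36.6%.

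Irradiated and unirradiated mice on the flaxseed diet gave the same comparison in 10 other mice. All 35 spots had a lower mean after radiation there (51.1% of all spots did), and 31 fell in limma at an adjusted p of 0.05, where 3.06% of all spots did. In the 95 bright spots lower at an unadjusted p under 0.05 but by less than 2-fold, both shares lay between these. They were above those of all spots and below those of the 35. Of these 95, 75 (78.9%) were lower again and 26 (27.4%) passed as lower in limma. The median change of the 35 was -1.87, with a range of -2.75 to -0.35, and 31 were over 2-fold lower, against 0.646% of all spots. The 4 that did not pass changed by -1.12 to -0.35. With each of these 10 arrays left out in turn, an alternative added after the values were seen, 25 to 32 of the 35 passed. Of the 3 spots over 2-fold higher without flaxseed, 0 passed in limma on the flaxseed diet, where 4.54% of all spots passed as higher, and 2 had a higher mean, as 48.9% of all spots did. On the flaxseed diet 0.708% of all spots were over 2-fold higher, and none of these 3 was.

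Spots at which the 5 irradiated and the 5 untreated mice did not overlap numbered 73 higher (0.76%) and 67 lower (0.698%), 140 in all (1.46%). With 1 of the 10 arrays left out, so that 4 mice faced 5, the counts were 109 to 150 higher and 93 to 136 lower. On the flaxseed diet 58 of the 67 lower spots (86.6%) were lower again, where 51.1% of all spots had a lower mean. In limma 34 of the 67 passed as lower (50.7%), as did 3.06% of all spots, and the median change was -0.7. Of the 73 higher spots, 49 (67.1%) were higher again, where 48.9% of all spots had a higher mean. In limma 18 of the 73 passed as higher (24.7%), as did 4.54% of all spots, and 1 passed as lower. Their median change was 0.084. Without flaxseed the medians of these 2 sets were -0.63 and 0.41.

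The difference in the radiation change between the diets was tested as an interaction in the same model. No spot passed (0 of 9600 in limma, smallest adjusted p 0.0616). At an unadjusted p under 0.05 there were 971 of 9600 spots, more than the 734 for radiation without flaxseed. Radiation on the flaxseed diet had 436 higher (4.54%) and 294 lower spots (3.06%) passing in limma. Without flaxseed these were 3 (0.0312%) and 6 (0.0625%). At gene6591 the radiation change was -2.13 on both diets, a difference of 0.005 with a 95% interval of -1.15 to 1.16. At gene9516 it was -2.11 without and -2.26 with flaxseed, a difference of -0.15 with an interval of -1.21 to 0.9. At gene3410 the changes were 0.54 and 0.61, with a difference of 0.068 (interval -0.24 to 0.37). At gene2520 they were 0.5 and 0.21, and the difference of -0.29 had an interval of -0.54 to -0.044 and did not pass (limma adjusted p = 0.408). The intervals at the bright spots allow differences of more than 2-fold between the diets.

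**Figure D5:**
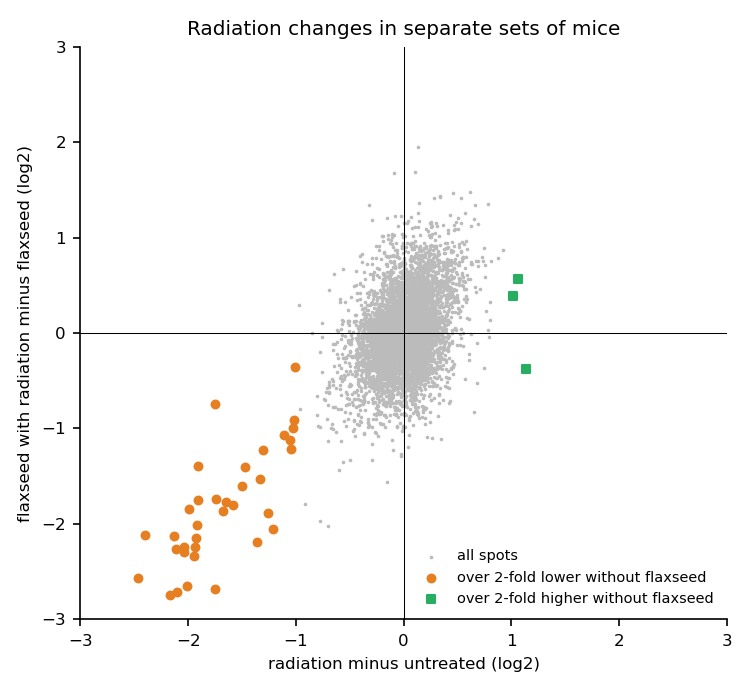
Radiation change with flaxseed (log2, vertical axis) against the radiation change without flaxseed (log2, horizontal axis) for 9600 spots, from separate sets of 10 mice. All 35 spots over 2-fold lower without flaxseed lie under 0 on both axes, and the 3 over 2-fold higher lie between -0.38 and 0.57 on the flaxseed diet.

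For most spots the data bound the size of the change. The 95% interval of the change lay within 2-fold in either direction for 9336 spots (97.3%) and within 1.5-fold for 7377 (76.8%). In the brightest 20%, where the offset has the least effect, 1707 of 1920 spots (88.9%) had an interval within 2-fold, against 1917 of 1920 in the dimmest 20%, where the offset narrows intervals and changes alike. With plain background subtraction the number was 7044 of 9600. The interval lay wholly beyond 2-fold for 16 spots, and all 16 were lower. These are single intervals, not adjusted over spots.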

How the data were processed

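Each deposited scanner file gives, per the file headers, a signal median and a local background median per spot, as linear, unnormalized intensity. The scanner is not given in the sources used here. The authors' deposited series table holds intensity as well; by comparison with the scanner files it is signal minus background over the array median, for 95.9% to 97.7% of spots within a relative tolerance of 0.001. It was used as an alternative. Its values for radiation replicates 4 and 5 match each other's scanner files, and which source is right is not settled; replicates are numbered here by the scanner files. The exchange changes no whole-group result. It holds 0 columns of other samples.

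Values were corrected by normexp with an offset of 50, quantile-normalized and taken as log2. All 20 arrays entered 1 linear model of 4 groups in limma 3.58.1 (R 4.3.3, 16 residual degrees of freedom), with p-values adjusted by Benjamini-Hochberg over 9600 spots. Array measures were tested by exact permutation in SciPy 1.17.1. The fit was tested on simulated data. P-values in limma set a difference of means against the spread between mice within groups, 1 array each. That spread was pooled over the 4 groups and moderated over all spots. The number of arrays limits the precision. Named spots are those with the largest changes among spots that passed, 2 up and 2 down. Gene lists fixed for named genes could not be applied. Members, lists and tests were chosen with earlier results of these data known.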

Additional observations from a re-analysis of the deposited data

How the results depend on the processing

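The count of 9 passing spots depended on the processing. It was 19 with median scaling (2 higher, 17 lower), 19 with cyclic loess (3 higher, 16 lower), 5 with the authors' table (3 higher, 2 lower), 31 without background correction (2 higher, 29 lower), 21 with background subtraction (3 higher, 18 lower), 32 with a normexp offset of 10 (4 higher, 28 lower), 30 without the dimmest 33.3% of spots (2 higher, 28 lower), 24 with trend and robust options (2 higher, 22 lower), 19 in a fit of only the 2 groups (2 higher, 17 lower), 22 with position removed (3 higher, 19 lower) and 33 at a threshold of 0.1 (6 higher, 27 lower). With array weights it was 11. With single arrays left out it was 0 to 9. Of the original 9 spots, 0 to 6 passed in those fits and 3 to 9 over the 12 other settings. The cause of these moves was not tested. Over the 12 other settings 33 to 35 of the 35 spots over 2-fold lower stayed over 2-fold lower. In the 4 named spots no change of sign occurred under any of the 22 alternatives. The difference between diets at gene6591 turned to -0.014 with cyclic loess and -0.02 with position removed, and ran from -0.12 to 0.13 with single arrays left out. At gene9516 it turned to 0.16 with median scaling, 0.035 with the authors' table and 0.055 with array weights. It passed under none of these. Of the array measures, the difference in spread was -0.0012, and 0.018 after background subtraction. With single arrays left out it was -0.073 to 0.11, that in median background -1.68 to 0.26, that in median signal over background -0.36 to 0.087, and that in the share under 2 times background -0.31 to 1.15 percentage points, and none passed. No paired analysis was possible because the labels number the mice 1 to 20 and share no number between groups. The offset and the 5 arrays per group limit what can be seen at dim spots.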

Other observations

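The median SD between mice was slightly higher after radiation, a difference that was not tested over arrays. The median SD over spots was 0.203 (log2) in irradiated and 0.196 in untreated lungs, and 54.3% of spots had the higher SD in irradiated lungs. Spots are not independent, and no cause was tested. Among flaxseed-fed irradiated mice, the 35 spots over 2-fold lower after radiation alone had a median of -0.39 relative to untreated lungs in replicate 2, against -1.32 to -2.36 in the other 4 mice.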
